A study of Caenorhabditis elegans with 24 samples.

Results

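The genes described here encode the factors that recognise the messenger RNA cap in the nematode Caenorhabditis elegans: the cap-binding protein eIF4E in its isoforms ife-1, ife-2, ife-3, ife-4 and ife-5, and its scaffold eIF4G, encoded by ifg-1. They were picked by WormBase gene ID (WBGene00002059 to WBGene00002063 for ife-1 to ife-5 in order, and WBGene00002066 for ifg-1). The rule itself uses no measured value, but earlier results of these data were known when the members were chosen. These genes are 6 of the 15208 with a probe on the array. Cap-binding eIF4E joins the scaffold eIF4G, which in turn brings the helicase eIF4A, the poly(A)-binding protein and the small ribosomal subunit to the messenger RNA. Many nematode messenger RNAs receive a trans-spliced leader with a trimethylated cap, and the worm's isoforms differ in whether they bind that cap as well as the ordinary monomethylated one. The early embryo lives largely on messenger RNA loaded by the mother, so the transcripts measured are mostly those she deposited.

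Each of the 24 samples held 50 embryos at the 4-cell stage, and its amplified RNA was hybridised to 1 one-colour array. The 8 groups held 3 samples each. The embryos came from N2, the wild-type laboratory strain, or from HC445, which carries the sid-1(qt9) mutation and is labelled as suspected to lack haf-6 as well; sid-1 encodes a double-stranded RNA channel. All worms had been fed Bacillus subtilis in place of the usual Escherichia coli. In generation 2 of each strain the mothers had been at 20 °C or at 25 °C, after grandparents at 20 °C. In generation 3 of each strain the mothers had been at 20 °C, after grandparents at 20 °C or at 25 °C. The samples were collected separately, but separate cultures are not mentioned, so the p-values reflect only how much these samples varied, which may be technical.

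The number of gene probes well above background ran from 9109 to 13075 per array, and the 75th percentile of processed spot signal from 30282 to 45402. Each of the 6 genes had 1 probe, and all 144 of their spots were well above background, with 0 saturated or marked as outliers, so all 6 entered the tests and none was lost to the filter on dim probes. The signals below are log2 of the processed signal minus log2 of the 75th percentile of the same array, so a value of 0 lies at that percentile. A probe's brightness also depends on its own sequence, so levels were compared between groups for 1 gene and never between genes. The replicate number was also the scan day, and each of the 3 days held 1 array of every group. Replicate 3 of N2 with mothers at 20 °C stood apart, with an array quality weight of 0.277 against 0.651 for the next lowest array, and the differences that it moved most are also given without it. Slide 9 held the replicate 3 arrays of the 4 groups with ancestors at 25 °C and no 20 °C array, and 5 of the 6 arrays with a spike-in note in the labels belonged to groups with ancestors at 25 °C. In amplified RNA scaled within each array, less transcript per embryo cannot be told apart from more of the others.

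**Figure D1:**
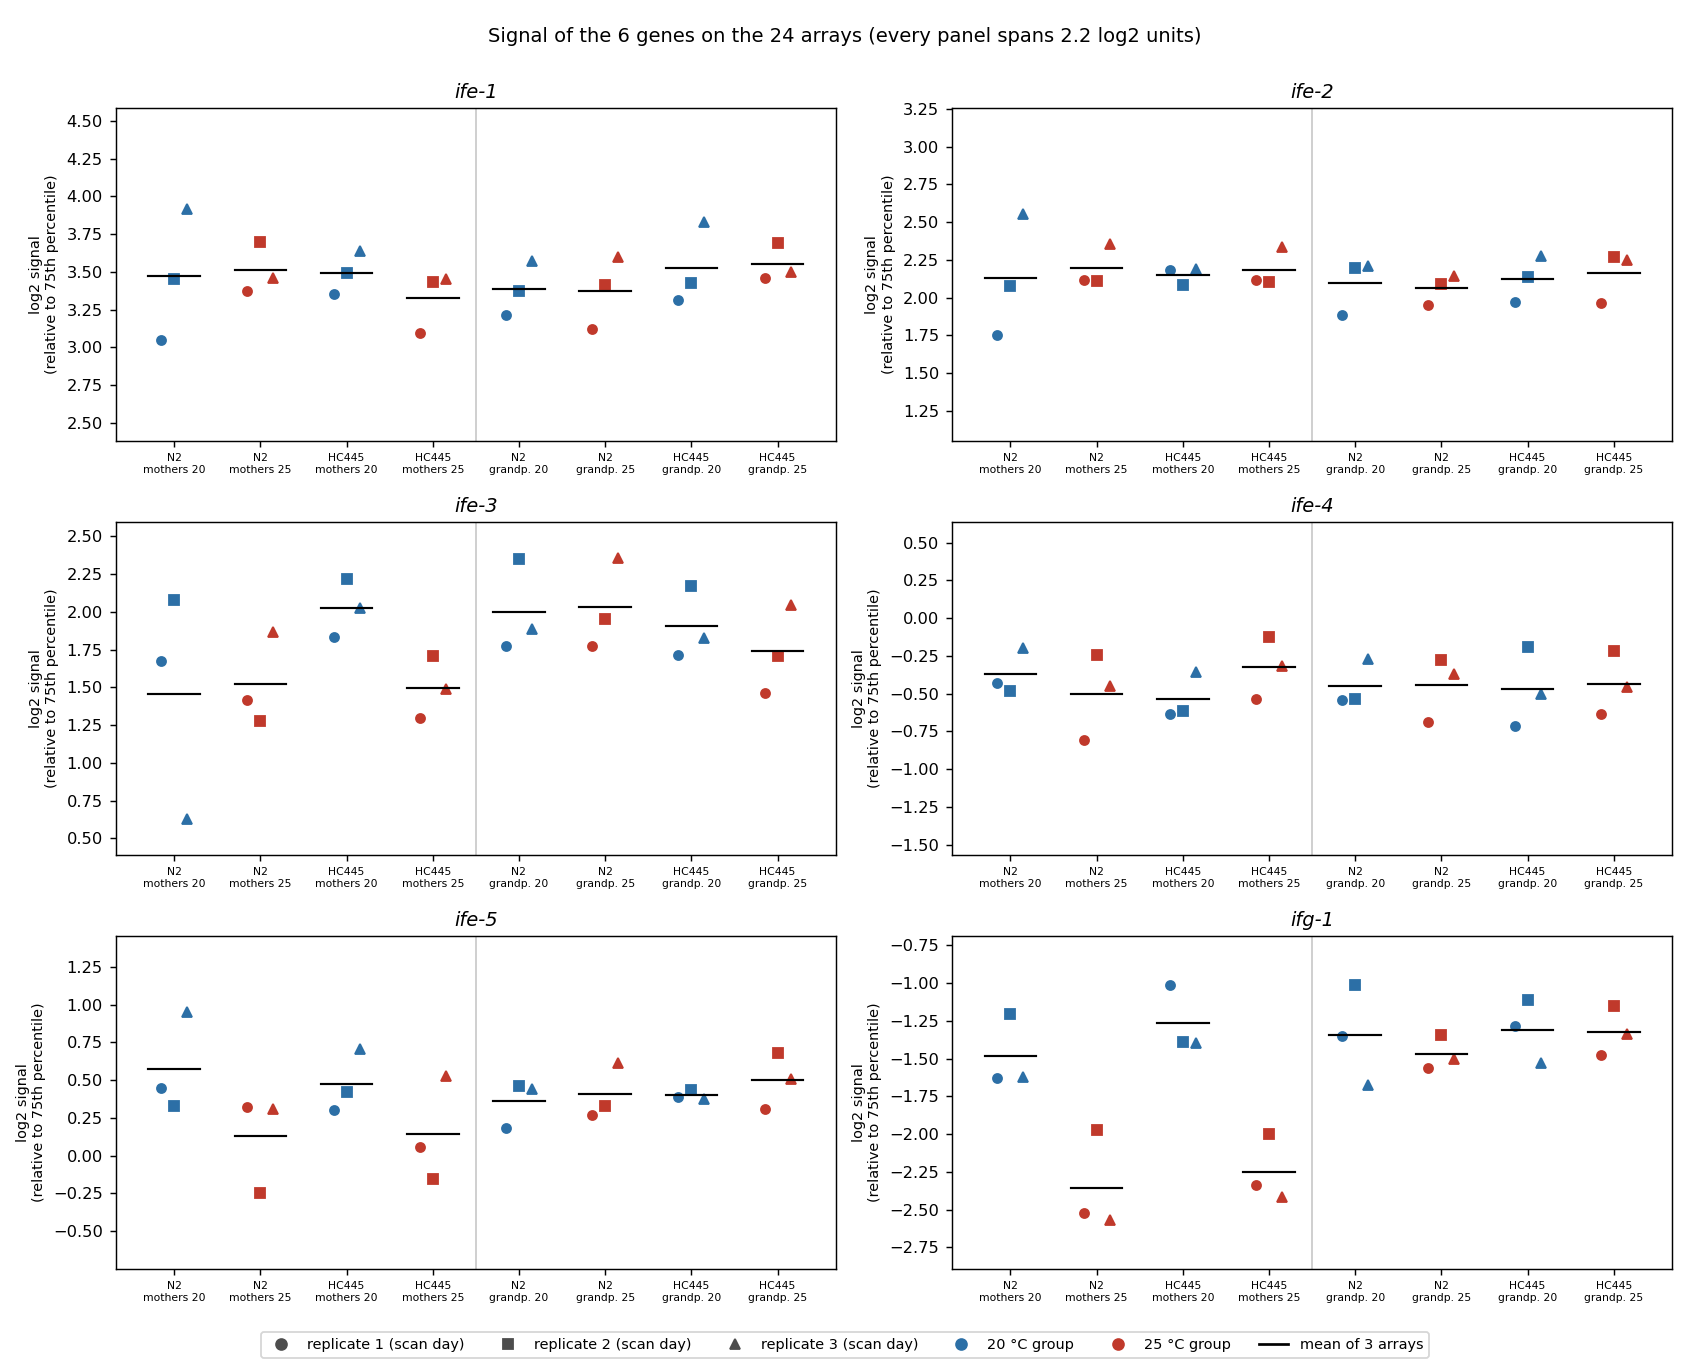
Log2 signal of each gene relative to the 75th percentile of its array, on the 24 arrays in 8 groups (horizontal axis: strain and the temperature in °C of the mothers, generation 2, or the grandparents, generation 3). Symbols are single arrays by replicate, bars are means of 3 arrays, and every panel spans the same height. The 6 ifg-1 arrays with mothers at 25 °C lie between -2.57 and -1.98, below the other 18 arrays, which lie between -1.68 and -1.01.

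A member was called for maternal temperature and for the maternal minus the grandparental effect, and in no other comparison. The scaffold gene ifg-1, which is the worm's single eIF4G gene, was 1.90-fold lower in embryos of mothers at 25 °C than at 20 °C, averaged over the strains, and the fall was seen in N2 and in HC445. The cap-binding genes ife-1, ife-2, ife-3, ife-4 and ife-5 gave no call in this comparison. Of the 6 genes, 1 was called, and it was lower, where a call is an adjusted p under 0.05 (limma with Benjamini-Hochberg adjustment, two-sided). Of all 11637 probes tested, 14% were called and 8.52% were called lower, so a count of 1 among 6 is near this background. In each strain alone the same gene was again the only one of the 6 called, against 5.47% of probes called and 3.34% called lower in N2, and 5.08% and 2.73% in HC445. The median difference of the 6 genes was -0.15 on the log2 scale, that of the 5 ife genes was -0.07, and that of all probes was -0.07.

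In N2, the log2 signal of ifg-1 was -1.63, -1.20 and -1.62 on the arrays of mothers at 20 °C (replicates 1, 2 and 3). It was -2.52, -1.98 and -2.57 on the arrays of mothers at 25 °C. The arrays of the warm mothers were all lower than those of the cool mothers, and replicate 2 was the highest of its group at both temperatures. The group means were -1.48 ± 0.24 and -2.36 ± 0.33 (SD, n = 3), a difference of -0.87 ± 0.20 (SE), or 1.83-fold lower, with a limma adjusted p of 0.0101. This N2 call passed in 32 of 38 alternatives: it was lost, at adjusted p from 0.0559 to 0.0623, without any 1 of 3 arrays (replicate 2 at 20 °C and replicates 1 and 3 at 25 °C), and also without slide 9 (-0.77), with a fixed slide block (-0.95) and without the arrays carrying a spike-in note (-0.49).

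In HC445, the ifg-1 signal was -1.01, -1.39 and -1.39 with mothers at 20 °C. With mothers at 25 °C it was -2.33, -1.997 and -2.42. Again the groups did not overlap, and the single high value of the cool group was replicate 1. The means were -1.27 ± 0.22 and -2.25 ± 0.22 (SD, n = 3), a difference of -0.98 ± 0.20 (SE), or 1.98-fold lower, with a limma adjusted p of 0.00429. Groups of 3 that did not overlap, with the warm group lower, were found for 10.8% of probes in N2, 13.3% in HC445 and 5.59% in both strains; ifg-1 was among the last.

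Averaged over the strains, the ifg-1 difference was -0.93 ± 0.14 on the log2 scale (SE; 95% interval -1.23 to -0.63; limma adjusted p = 8.22e-05), and 9.75% of probes had a lower value. This average and the strain-wise differences share their arrays. The HC445 difference minus the N2 difference was -0.11 (95% interval -0.70 to 0.48; -0.04 without the low-weight N2 array), so the effect in one strain was not distinguished from that in the other at this number of arrays; no probe of the array passed the test of that difference (0 of 11637 at adjusted p under 0.05 by limma, 142 at an unadjusted p under 0.05).

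Each scan day held both maternal temperatures, so the ifg-1 difference could be read 6 times within a day. It was -0.89, -0.77 and -0.95 in N2 and -1.32, -0.61 and -1.02 in HC445, for replicates 1, 2 and 3. All 6 were below 0, and the smallest in each strain was that of replicate 2. How many of all probes were below 0 in all 6 was not counted. Only slide 2 held a generation 2 N2 array of each maternal temperature, and the difference there was -0.89. Of this pair, the 25 °C array carried a spike-in note and the 20 °C array did not. No slide held a generation 2 HC445 array of each maternal temperature, so the strain gave no difference within a slide. Of its replicate 1 pair, with -1.32, the 20 °C array carried a spike-in note and the 25 °C array did not. The arrays of replicate 2, which carried no spike-in note and were not on slide 9, gave the -0.77 and -0.61 above. Both of their generation 2 arrays at 25 °C were on slide 12, and those at 20 °C on slides 15 (N2) and 13 (HC445). Slide and maternal temperature thus cannot be told apart in these differences. Without the 6 noted arrays, the average over the strains was -0.63 ± 0.19 (SE) and missed the threshold (limma adjusted p = 0.0555), with 1 array left in the N2 group of mothers at 25 °C. A fixed block for slide, with only 3 degrees of freedom remaining, gave -1.09 ± 0.24 (adjusted p = 0.0916). The part of slide and spike-in in the result was not tested further.

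**Figure D2:**
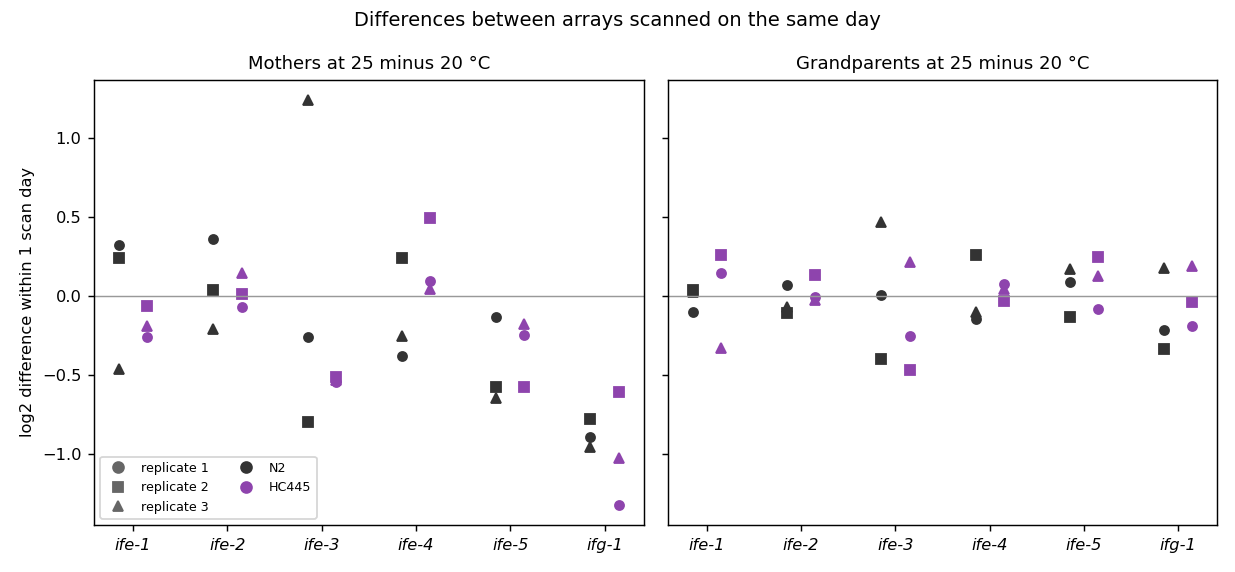
Log2 difference (vertical axis) between the 25 °C and the 20 °C array of 1 scan day, for each gene (horizontal axis), by strain (colour) and replicate (symbol), for maternal temperature on the left and grandparental temperature on the right. For ifg-1 all 6 maternal differences lie between -1.32 and -0.61, and the 6 grandparental differences lie between -0.33 and 0.19.

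A ratio of 2 probes on the same array does not depend on how arrays are scaled. Relative to each of the 5 ife probes, ifg-1 was lower with mothers at 25 °C by -0.94 to -0.42 on the log2 scale in N2 (-1.22 to -0.59 without the low-weight array) and by -1.19 to -0.46 in HC445. The average over the strains ran from -0.98, relative to ife-2, to -0.54, relative to ife-5. The groups of 3 overlapped in 4 of these 10 ratios, those to ife-2, ife-3 and ife-5 in N2 and to ife-5 in HC445. How many ratios of other probes overlap was not counted, and no test was made on the ratios. All 5 ratios share the ifg-1 values, and each also moves with its ife gene. In HC445 the -1.19 was relative to ife-4, whose own difference was 0.21. The -0.46 was relative to ife-3, whose own difference was -0.53.

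The isoform gene ife-5 had the next largest average difference. Without the low-weight N2 array, however, the average was larger for ife-3 (-0.44) than for ife-5 (-0.30). The product of ife-5 binds trimethylated as well as monomethylated caps and is closely related to IFE-1. In N2 the log2 signal of ife-5 was 0.45, 0.33 and 0.95 with mothers at 20 °C (replicates 1, 2 and 3). With mothers at 25 °C it was 0.32, -0.25 and 0.31. These groups did not overlap, but the lowest cool array and the highest warm array, 0.328 and 0.320, were nearly level, and 17.6% of probes did not overlap in one direction or the other. In HC445 the values were 0.30, 0.42 and 0.71 against 0.06, -0.16 and 0.53, and the groups overlapped.

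The ife-5 difference was -0.45 ± 0.19 in N2 (SE; limma adjusted p = 0.209) and -0.33 ± 0.19 in HC445 (adjusted p = 0.425). Single arrays moved these values: N2 gave -0.26 without the low-weight array or without replicate 2 at 25 °C, and HC445 gave -0.18 without replicate 2 at 25 °C, -0.22 without replicate 3 at 20 °C and -0.53 without replicate 3 at 25 °C, with no call in any of them. The average over the strains was -0.39 (95% interval -0.67 to -0.11), or 1.31-fold lower, with an unadjusted p of 0.00867 and an adjusted p of 0.0578 by limma, which misses the threshold. Within scan days the difference was below 0 in 6 of 6 cases, from -0.64 to -0.13, but the share of all probes with 6 of 6 was not counted. With scan day as a block, which is the same as the replicate number, the average was called (adjusted p = 0.0132), and so it was without slide 9 (-0.53, adjusted p = 0.0225). Without the low-weight N2 array it was -0.30 (adjusted p = 0.149). In both strains ife-5 was lowest on the replicate 2 array of mothers at 25 °C, the array on which ifg-1 was highest within that group.

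The gene ife-3 encodes the isoform most like mammalian eIF4E, which binds monomethylated caps. In HC445 its signal was 1.84, 2.22 and 2.02 with mothers at 20 °C. With mothers at 25 °C it was 1.30, 1.71 and 1.49. The groups did not overlap, as was so for 22.9% of probes, and the 3 differences within scan days were nearly equal, between -0.54 and -0.51. The fitted difference was -0.53 ± 0.27 (SE; 95% interval -1.08 to 0.02; limma adjusted p = 0.333), which did not pass.

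In N2 the ife-3 signal was 1.67, 2.08 and 0.63 with mothers at 20 °C and 1.41, 1.28 and 1.87 with mothers at 25 °C. The value of 0.63 came from the low-weight array and was the lowest of the 24 for this gene. With it the N2 difference was 0.06 ± 0.27 (SE; adjusted p = 0.949), and without it -0.35 ± 0.22 (adjusted p = 0.434). The average over the strains was -0.23 (95% interval -0.62 to 0.16; limma adjusted p = 0.481) with that array and -0.44 (adjusted p = 0.0559) without it. The HC445 difference minus the N2 difference was -0.59 (95% interval -1.37 to 0.19; limma adjusted p = 1.00) with that array and -0.17 without it.

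The other isoform genes gave small differences. For ife-1, whose product associates with the germ granule protein PGL-1 and is needed for sperm formation, the average over the strains was -0.07 (95% interval -0.33 to 0.20). For ife-2, whose product also binds trimethylated caps, it was 0.05 (95% interval -0.18 to 0.28). For ife-4, a divergent isoform that binds monomethylated caps and is expressed in neurons and muscle of the worm, it was 0.04 (95% interval -0.22 to 0.30). Without the low-weight N2 array the average was 0.05 for ife-1, 0.16 for ife-2 and 0.08 for ife-4, again with none called. The groups of 3 overlapped for these 3 genes in both strains.

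**Figure D3:**
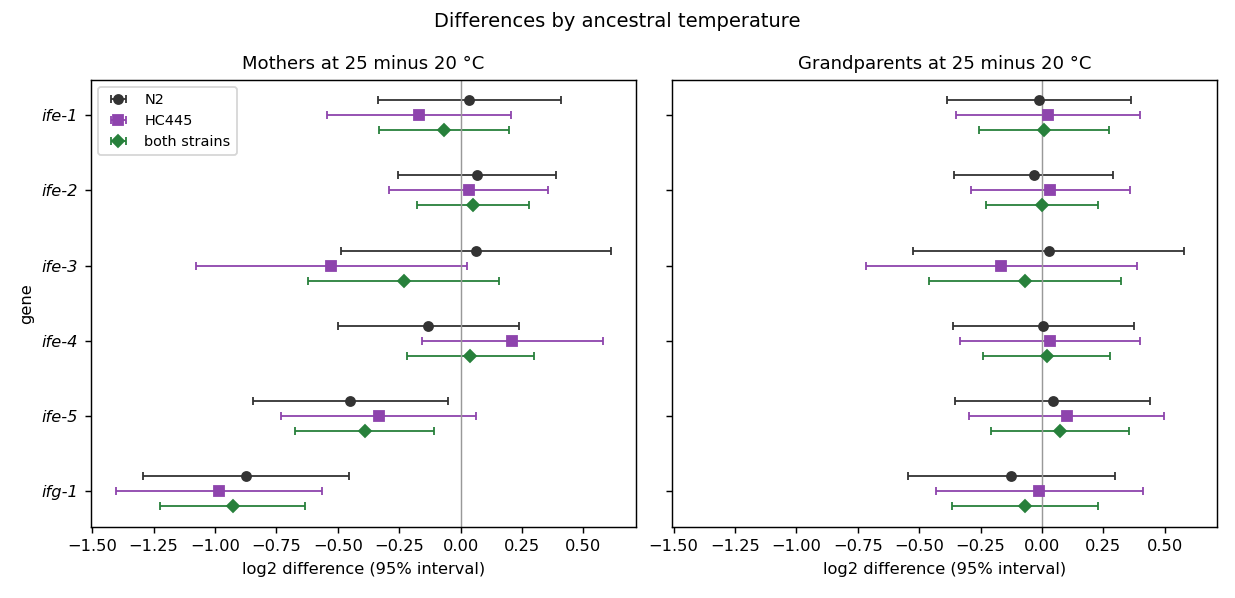
Log2 difference (horizontal axis) with its 95% interval for each gene (vertical axis), for mothers at 25 °C minus 20 °C on the left and grandparents at 25 °C minus 20 °C on the right, in N2, in HC445 and averaged over the strains. On the left the 3 intervals of ifg-1 lie wholly below 0, as do those of ife-5 in N2 and averaged; on the right every interval spans 0.

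**Figure D4:**
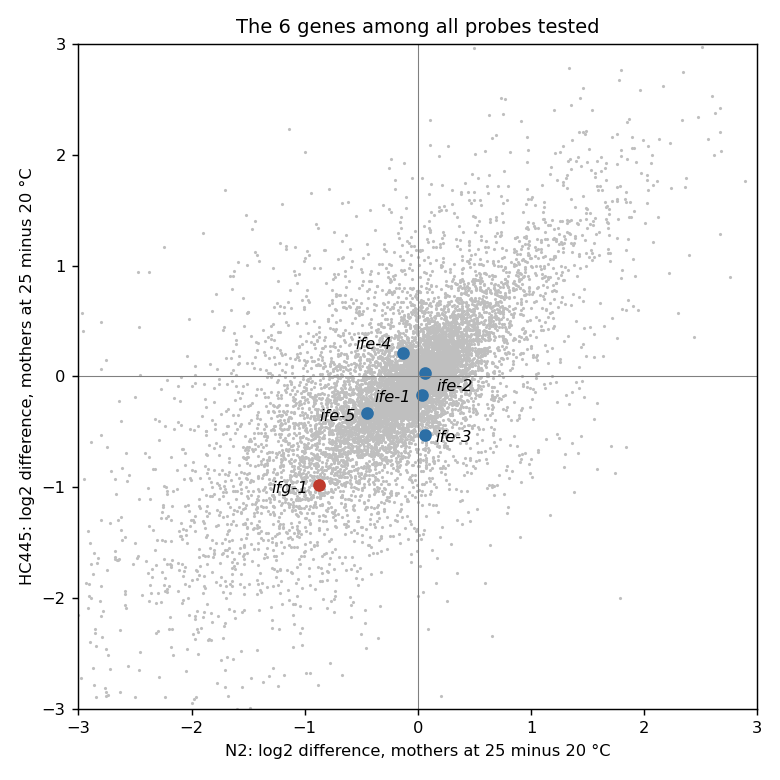
Log2 difference between embryos of mothers at 25 °C and at 20 °C in N2 (horizontal axis) against HC445 (vertical axis), for the probes tested (grey) and the 6 genes (ifg-1 in red, the ife genes in blue). The axes end at -3 and 3, which leaves 122 probes outside; ifg-1 lies at -0.87 and -0.98.

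Grandparental temperature asks whether a difference is seen in embryos whose mothers were at 20 °C and whose grandparents were at 25 °C. None of the 6 genes was called in either strain or on average (0 of 6 by limma, and 0 of 6 at an unadjusted p under 0.05). Of all probes, 0.284% were called on average, 0.112% in N2 and 0.0859% in HC445. An unadjusted p under 0.05 was found for 6.34%, 4.67% and 3.62%, so the counts of 0 among 6 are near this background. The groups of 3 overlapped for all 6 genes in both strains, whereas 7.32% of probes did not overlap in N2 (4.85% with the 25 °C group lower) and 8.19% in HC445 (5.23% lower).

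For ifg-1 the N2 signal was -1.35, -1.01 and -1.68 with grandparents at 20 °C and -1.56, -1.34 and -1.499 with grandparents at 25 °C. The HC445 signal was -1.29, -1.11 and -1.53 against -1.47, -1.15 and -1.34. The 25 °C values lay inside the range of the 20 °C values in each strain. The difference was -0.12 ± 0.20 (SE) in N2 and -0.01 ± 0.20 in HC445, and the average of -0.07 had a 95% interval of -0.36 to 0.23 (limma adjusted p = 1.00). Relative to the 5 ife probes on the same array, the average lay between -0.14 and 0.00.

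The ife genes gave grandparental differences, averaged over the strains, of 0.01 for ife-1, 0.00 for ife-2, -0.07 for ife-3, 0.02 for ife-4 and 0.07 for ife-5. The widest of their 95% intervals was that of ife-3, from -0.46 to 0.32. Within scan days the sign of the difference was mixed for each of them.

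The maternal effect minus the grandparental effect was tested directly, and the 2 effects rest on different arrays. For ifg-1 it was -0.86 ± 0.20 on the log2 scale (SE; limma adjusted p = 0.0119). It was the single call among the 6 genes, where 5.30% of all probes were called and 2.66% were called and negative. For ife-5 it was -0.46 (95% interval -0.86 to -0.06), with an unadjusted p of 0.0247 and an adjusted p of 0.199 by limma, which did not pass.

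Ordered by mean, ifg-1 was highest in HC445 with mothers at 20 °C (-1.27), followed by HC445 with grandparents at 20 °C (-1.31) and at 25 °C (-1.32), N2 with grandparents at 20 °C (-1.34) and at 25 °C (-1.47), and N2 with mothers at 20 °C (-1.48). The SDs of these groups ran from 0.11 to 0.33, and neighbours differed by less than both their SDs, except the 2 N2 groups of generation 3, which differed by 0.12 (SDs 0.33 and 0.11) and were not told apart by the test. The next group, HC445 with mothers at 25 °C, lay at -2.25, below the lowest single array of all groups above it (-1.68). The last, N2 with mothers at 25 °C, lay at -2.36, within the spread of its neighbour. How many of all probes have such a step was not counted.

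The other genes had no such step. Group means spanned 1.09 log2 units for ifg-1, 0.57 for ife-3, 0.45 for ife-5, 0.22 for ife-1, 0.21 for ife-4 and 0.13 for ife-2. The residual SD within groups was 0.19 for ife-2, 0.21 for ife-4, 0.24 for ife-1, ife-5 and ifg-1, and 0.36 for ife-3, against a median of 0.37 over all probes tested. The span of the group means of ife-1, ife-2 and ife-4 was thus about as wide as 1 residual SD or narrower, and no order is read from them. For ife-3 the highest mean was that of N2 with grandparents at 25 °C (2.03 ± 0.30, SD, n = 3) and the lowest that of N2 with mothers at 20 °C (1.46 ± 0.75), the group with the low-weight array. For ife-5 the lowest means were those of N2 and HC445 with mothers at 25 °C (0.13 ± 0.32 and 0.14 ± 0.35), and the other 6 groups lay between 0.36 and 0.58.

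The strains were compared at each ancestral temperature. With all ancestors at 20 °C, over both generations, HC445 minus N2 ranged from -0.09 for ife-4 to 0.23 for ife-3, and for ifg-1 it was 0.13 (95% interval -0.17 to 0.42). Without the low-weight N2 array the range was -0.05 for ife-4 to 0.19 for ife-1, with ife-3 at 0.03. With mothers at 25 °C it ranged from -0.18 for ife-1 to 0.17 for ife-4. With grandparents at 25 °C it ranged from -0.29 for ife-3 to 0.17 for ife-1. None of the 6 genes was called in these comparisons by limma or had an unadjusted p under 0.05. Of all probes, 0.112%, 0.0602% and 0.0172% were called, and 5.41%, 2.03% and 1.62% had an unadjusted p under 0.05. Between the generations with all ancestors at 20 °C, the differences ran from -0.15 for ife-5 to 0.21 for ife-3 (-0.05 and 0.00 without that array). Again 0 of 6 were called by limma and 0 of 6 had an unadjusted p under 0.05. Of all 11637 probes, 0 were called there and 3.15% had an unadjusted p under 0.05, so these counts are near this background.

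The isoform genes also varied with the scan day. On the day of replicate 1, ife-1 was the lowest of its group in 8 of 8 groups, ife-4 in 7, ife-3 in 6, ife-2 in 5 and ife-5 in 4. How many of all probes have such counts was not counted. Over the probes tested, with group means removed, 24 of 24 arrays correlated best with arrays of their own replicate number. For ife-1 the mean deviation from the group means was -0.21 on the day of replicate 1, 0.04 on the day of replicate 2 and 0.17 on the day of replicate 3. For ifg-1 the day of replicate 2 was the high one, with a mean deviation of 0.20, and replicate 3 was its lowest array in 5 of 8 groups. Deviations of ife-1 and ife-2 from their group means went together over the 24 arrays, which share their scan day and scaling (Pearson r = 0.77, a description with no test), while those of ife-5 and ifg-1 went in opposite directions (r = -0.47).

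Likeness over the 24 arrays was measured by Pearson r of the log2 signal against the other probes well above background on all arrays with no missing spot, 8025 probes in all. The probe most like ifg-1 was WBGene00000041 (r = 0.922, with the next probe at 0.920). Its average maternal difference was -0.85, a description, since a probe picked for its likeness to ifg-1 would follow the step of ifg-1. The probe most like ife-1 was WBGene00011292 (r = 0.95). The most like probes were WBGene00002982 for ife-2 (r = 0.91), WBGene00003777 for ife-3 (r = 0.88), WBGene00021795 for ife-4 (r = 0.83) and WBGene00013967 for ife-5 (r = 0.82). The probe in first place changed with the measure: by Spearman's rho it was another for every gene except ife-4, and by Pearson r after quantile normalization it was another for ife-1 (r = 0.74) and ife-5. These are descriptions of arrays that share scan days and scaling, with the highest of many values picked.

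**Figure D5:**
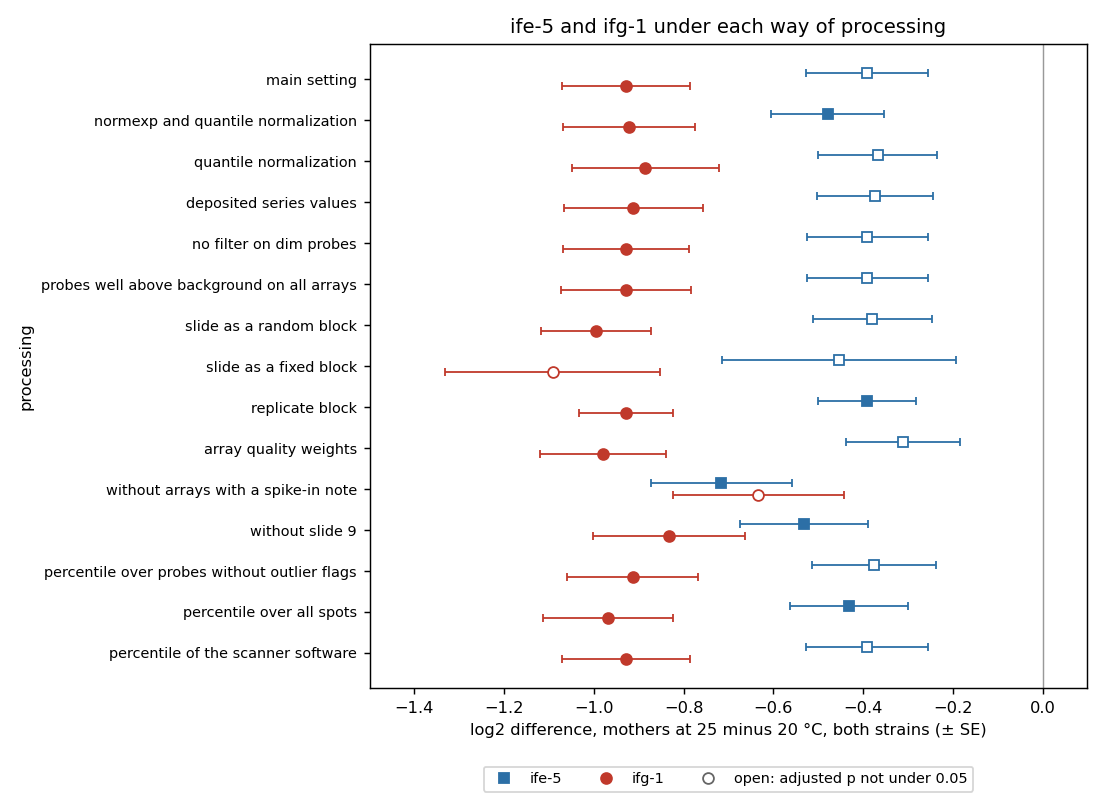
Log2 difference for mothers at 25 °C minus 20 °C averaged over the strains (horizontal axis, ± SE) for ife-5 and ifg-1 under the main setting and 14 other ways of processing (vertical axis). Filled symbols have an adjusted p under 0.05; ifg-1 lies between -1.09 and -0.63 and is open with a fixed slide block and without the noted arrays, while ife-5 lies between -0.72 and -0.31 and crosses the threshold in 5 of the 14.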

How the data were processed

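Per the file headers, the authors obtained processed spot intensities from Agilent Feature Extraction (version 9.5.3.1), with background subtraction and detrending within an array. Other columns used, the flags for spots well above background, saturated or outlying, come from the same deposited output. Log2 values in the deposited series table served as an alternative; how they were made is not given. RNA went through amplification by in vitro transcription before Cy3 labelling, per the labels' protocols, which can change the proportions of transcripts. The array was annotated on an older genome build than the reference gene table, so no coordinates are given. Of the probes' gene IDs, 0 of 15208 were in that table, so member names are those of the set's definition (all 6 symbols are in the table), and lists of translation factors, embryo and maternal tissue markers, and the sid-1 and haf-6 probes were not used here. No sequence is printed.

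Control spots were left out and outlier spots set to missing. From the log2 processed signal, the array's log2 75th percentile over all gene probes was subtracted. A probe was tested where all arrays of 1 group or more were well above background (11637 of 15208; on all arrays, 8391). limma 3.58.1 in R 4.3.3 fitted a mean per group with 1 shared spread per probe (lmFit, and eBayes with a trend). Each of 13 contrasts had two-sided tests, adjusted over all probes by the Benjamini-Hochberg method at 0.05. The fit was also run on simulated arrays with independent residuals. As these shared no scan day or slide deviations, that run cannot show how the fit behaves with those of the real arrays. Folds are 2 to the power of the difference. The number of arrays limits the precision. The named genes are all 6 members and, for each, the probe with the highest Pearson r. The members and lists were chosen with earlier results of these data known. Alternatives were normexp (offset 50) followed by quantile normalization, quantile normalization alone, the deposited values, other filters on dim probes, slide and replicate blocks, array weights (statmod 1.5.0 for the random block), leaving out slide 9, noted arrays or single arrays, and, chosen after seeing the data, 3 other definitions of the percentile and the ratios within an array. Figures were drawn with matplotlib 3.10.9.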

Additional observations from a re-analysis of the deposited data

Results flagged for a closer look

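A difference between comparisons was called for ifg-1: its maternal effect minus its grandparental effect, tested as 1 contrast over both strains, was -0.861 on the log2 scale (limma adjusted p = 0.0119). Of all probes tested, 5.30% were called in this contrast and 10.9% had a lower value than ifg-1. The maternal effect was -0.93 and the grandparental effect -0.07. The call was lost without the noted arrays (-0.58), without slide 9 (-0.78) and with a fixed slide block (-1.005).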

How the results depend on the processing

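Each of the 78 differences (6 genes, 13 contrasts) was refitted under 38 alternatives. The 4 called in the main setting, all of ifg-1, kept their sign in 152 of 152 refits and passed the threshold in 139: 36 of 38 for the average over the strains, 36 for HC445, 32 for N2 and 35 for the maternal minus the grandparental effect. Of 2812 refits of uncalled differences, 230 had another sign, with sizes up to 0.42; as neither value was called, these are counted here and not listed as reversals. Another 8, all of ife-5, passed. For the average maternal effect 2 genes were called (ifg-1 and ife-5) with normexp and quantile normalization, the replicate block, the percentile over all spots or without slide 9, and 0 with a fixed slide block. Without the noted arrays 1 was called, ife-5 (-0.72, adjusted p = 0.0118) and not ifg-1 (0.0555). In N2, 2 were called with normexp and quantile normalization (ife-5 at 0.0473), and 0 with a fixed slide block (ifg-1 at 0.0506), without the noted arrays (0.490) and without slide 9 (0.0981). In HC445, 0 were called with a fixed slide block (0.506) and without the noted arrays (0.153). For the maternal minus the grandparental effect, 0 were called with a fixed slide block (0.114), without the noted arrays (0.308) and without slide 9 (0.102). The cause was not tested. Leaving out 1 array, the count ran from 1 to 2 on average and from 0 to 1 in N2: ifg-1 lost its N2 call without replicate 2 at 20 °C (0.0560), replicate 1 at 25 °C (0.0559) or replicate 3 at 25 °C (0.0623), and ife-5 was called on average without N2 replicate 2 at 20 °C (0.0359) or HC445 replicate 3 at 25 °C (0.0185).

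Residuals of same-numbered arrays correlated above 0.1 in 66 of 84 pairs, and 24 of 24 arrays correlated best with their own number. The median residual r was 0.227 for arrays of the same number and -0.116 for arrays of other numbers. The main fit did not include the replicate number. With the replicate block, the SE of the average maternal effect went from 0.136 to 0.109 for ife-5 and from 0.143 to 0.104 for ifg-1. The replicate block changed no call of the 6 genes other than that of ife-5. Over alternatives other than leaving out 1 array, all probes called for the average maternal effect ran from 41 to 2666 (2666 with the replicate block; main 1626), in N2 from 150 to 1419 (main 636), in HC445 from 2 to 1130 (main 591) and for the maternal minus the grandparental effect from 47 to 1198 (main 617). Grandparental counts ran from 1 to 72 on average (main 33), from 0 to 27 in N2 (main 13; up to 57 without 1 array) and from 1 to 20 in HC445 (main 10), and strain counts from 1 to 71 (main 2 to 13). Quantile normalization took the median of all probes in the average maternal effect from -0.07 to 0.02, and ifg-1 was then -0.89.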
